A study of Homo sapiens with 4 samples.

Results

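The levels of 10 genes of the epithelial-mesenchymal transition (EMT) were examined in MG and non-MG cells with and without 5-azacytidine. They were the transcription factors ZEB1, ZEB2, SNAI1, SNAI2, TWIST1 and TWIST2, the intermediate filament gene VIM, the cadherin genes CDH1 and CDH2, and the fibronectin gene FN1. The genes were fixed by name, and their probes were found by matching RefSeq accessions, which gave 17 of the 50594 probes kept on the arrays and 10 of 21611 gene symbols. HCT116 is an established colorectal carcinoma cell line, and both cell types came from it by repeated selection in a transwell chamber, MG cells as those that crossed the membrane and non-MG cells as those that stayed. The subpopulations were cultured separately and are selected populations of 1 cell line. Each was given 5 µM 5-azacytidine, which blocks DNA methyltransferases, or vehicle (labelled control) for 48 h. RNA of each of the 4 conditions (non-MG cells with vehicle, non-MG cells with 5-azacytidine, MG cells with vehicle, MG cells with 5-azacytidine) was hybridized to 1 one-colour array. Nothing was replicated, and differences between conditions could not be tested.

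In EMT, epithelial cells loosen their junctions and gain motility. SNAIL, ZEB and TWIST proteins are transcription factors that drive this program. SNAIL and ZEB proteins bind E-boxes in the promoters of CDH1 and other junction genes, and many carcinoma cells that pass through EMT exchange E-cadherin (CDH1) for N-cadherin (CDH2), add vimentin (VIM) to their keratin filaments and secrete fibronectin (FN1). Cells that hold epithelial and mesenchymal genes at the same time are called hybrids.

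The promoters of VIM and ZEB1 are shown because these were the genes whose probes differed most between the arrays. Another reason is that 5-azacytidine blocks DNA methyltransferases, which methylate CpG dinucleotides. The sequences are RefSeq windows of the GRCh38.p14 genome that start 250 bases before the transcript start and end 50 bases after it, all on the plus strand, and no methylation was measured on these arrays. The VIM window lies at chr10:17227991-17228290 and holds 10 CpG, compared with a median of 14 over 35116 windows, of which 43.6% hold fewer. RefSeq lists 7 such windows for ZEB1. The first of them, chr10:31318167-31318466, and the window at chr10:31318966-31319265 hold 17 CpG each. The other ZEB1 windows hold from 7 to 35, so these 2 do not describe the CpG content of all of them. CpG dinucleotides are in capitals in the first 2 sequences.
VIM: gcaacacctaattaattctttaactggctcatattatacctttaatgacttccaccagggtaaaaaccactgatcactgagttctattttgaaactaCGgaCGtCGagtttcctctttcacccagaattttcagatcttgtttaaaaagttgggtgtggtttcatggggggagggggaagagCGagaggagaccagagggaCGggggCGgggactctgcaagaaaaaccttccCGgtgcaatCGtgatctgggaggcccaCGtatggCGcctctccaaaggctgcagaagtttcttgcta
ZEB1, first window: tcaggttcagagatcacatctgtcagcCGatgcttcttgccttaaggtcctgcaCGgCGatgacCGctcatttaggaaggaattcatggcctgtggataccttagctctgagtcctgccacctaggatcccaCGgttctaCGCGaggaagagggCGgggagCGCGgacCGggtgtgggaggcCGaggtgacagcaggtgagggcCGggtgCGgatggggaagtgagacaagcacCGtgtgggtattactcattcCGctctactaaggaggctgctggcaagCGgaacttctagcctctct

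The letters CACCTG and CAGGTG, which are the 2 strands of 1 E-box that SNAIL and ZEB proteins are known to bind, were searched in the same windows. No match lay in the VIM window, and 2 of the 7 ZEB1 windows held at least 1, compared with 20.6% of all windows. The window at chr10:31318966-31319265 held 3 matches, the most of the 7. Of all windows, 3.49% held 2 or more, a share of single windows that leaves out the choice of 1 among 7. The 2 ZEB1 windows printed are those with a match. The window with 3 matches is printed with them in capitals. A match in this window describes its letters only. No match was found in the windows of ZEB2, TWIST2, FN1 or CDH2. The promoters of CDH1, SNAI1, SNAI2 and TWIST1 were not searched, as no window of them was used.
ZEB1, window with 3 matches: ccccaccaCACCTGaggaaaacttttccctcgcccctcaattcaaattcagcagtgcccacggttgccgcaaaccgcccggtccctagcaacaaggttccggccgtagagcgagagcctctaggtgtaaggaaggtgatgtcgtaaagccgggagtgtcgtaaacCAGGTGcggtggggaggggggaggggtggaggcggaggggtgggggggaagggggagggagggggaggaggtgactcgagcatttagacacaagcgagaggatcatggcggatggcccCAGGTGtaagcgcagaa

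Between 21382 and 21881 probes were well above background on an array, and 19808 probes were so on all 4. The 75th percentile of the intensity, by which every array was scaled, lay between 75.2 and 98.7, the detection limit (the dimmest probe that was well above background) was at 9.95 to 11.8, and no spot was saturated. Of 12 colon epithelial markers, 7 were above background on all 4 arrays, EPCAM and the keratins KRT8, KRT18 and KRT19 among them, whereas the probes of VIL1, CDH17, LGR5 and CEACAM5 were above it on none. Among the fibroblast markers, COL1A1 and ACTA2 were above background on all 4 arrays, and THY1 on both treated arrays only. The fibroblast genes COL1A2, COL3A1, DCN, LUM, PDGFRA, PDGFRB, POSTN and FAP were above background on none. The arrays lay on 1 slide, with non-MG cells in row 1 and MG cells in row 2. Vehicle was in column 3 and 5-azacytidine in column 4. Any difference between the cell types may thus hold an effect of slide row, and any drug difference an effect of slide column.

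Only 5 of the 10 genes (ZEB1, SNAI1, TWIST1, VIM and CDH1) had a probe well above background on all 4 arrays, with 1 probe each. A second ZEB1 probe and 1 of the CDH2 probes were above it on some arrays. The other 10 probes were above it on none, with intensities from 1.97 to 10.7. They were all the probes of ZEB2, SNAI2, TWIST2 and FN1, the other TWIST1 probe and the other CDH2 probe. The signals of different probes are not comparable with each other, because each binds its target with its own efficiency.

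**Figure D1:**
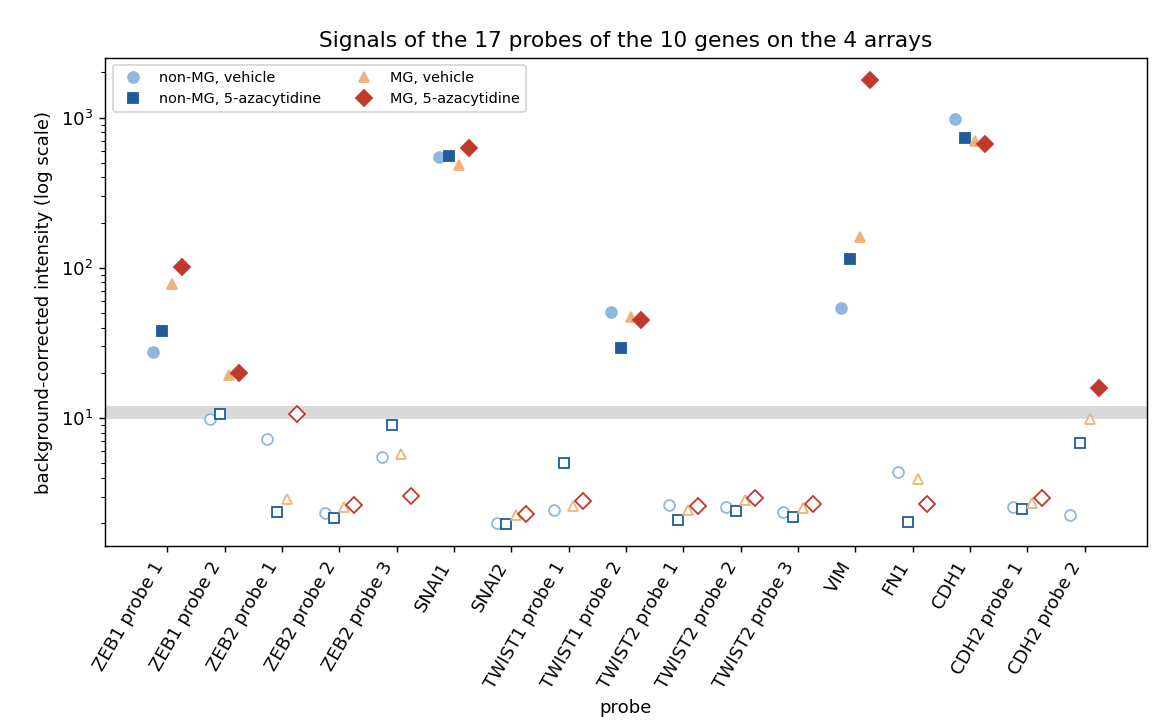
Background-corrected intensity (log axis) of the 17 probes of the 10 genes on the 4 arrays, with filled symbols for probes well above background on that array, open symbols for the others, and a grey band for the detection limit of the arrays (9.95 to 11.8). VIM spread most over the arrays, from 54.3 to 1771, and all symbols of ZEB2, SNAI2, TWIST2 and FN1 are open; heights are to be compared within a probe only.

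Differences below are log2 values after each array was scaled to its 75th percentile, and the error given with each is the spot error, derived from the SD between the spots of probes that are spotted 10 times. It holds the error of printing and reading the array and leaves out that of cultures and labelling reactions. It follows the signal: the SD was 0.32 at log2 intensities from 3 to 4 and 0.05 from 10 upwards. In RNA of whole cultures, fewer cells with a transcript and less of it per cell cannot be told apart. The 4 comparisons share their arrays, and their values are therefore not independent of each other.

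VIM, which encodes the main intermediate filament of mesenchymal cells, had the widest spread of the 5 genes. Its probe (VIM lies at chr10:17228241-17237593 of GRCh38.p14) gave an intensity of 54.3 in non-MG cells with vehicle, 114 in non-MG cells with 5-azacytidine, 162 in MG cells with vehicle and 1771 in MG cells with 5-azacytidine. The treated MG cells stood far above the other 3 arrays. Untreated MG cells and treated non-MG cells lay next to each other, at levels that differed by 0.11 ± 0.11 (spot error), and untreated non-MG cells were lowest. From the lowest to the highest array VIM spanned 29.4-fold.

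With 5-azacytidine VIM rose by 3.49 ± 0.09 (spot error) in MG cells, which is 11.2-fold and ranked 10 from the highest of 19808 probes. In non-MG cells it rose by 1.28 ± 0.16, or 2.43-fold, and ranked 51. MG cells thus started from the higher level and had the larger rise. The response in MG cells exceeded that in non-MG cells by 2.21 ± 0.18, which ranked 8 of 19808 probes, but without replicates this difference was not tested. The gap between the cell types, 1.39 ± 0.15 with vehicle, was 3.60 ± 0.10 with 5-azacytidine. The latter is 12.1-fold and ranked 3 of 19808.

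VIM passed 1.5-fold in all 4 comparisons under each of the 7 other ways of scaling or background correction. Where background was kept in the signal or an offset was added to it, the rise in non-MG cells was smaller (0.71 and 0.66), as was the difference between the untreated cell types (0.93 and 0.88).

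**Figure D2:**
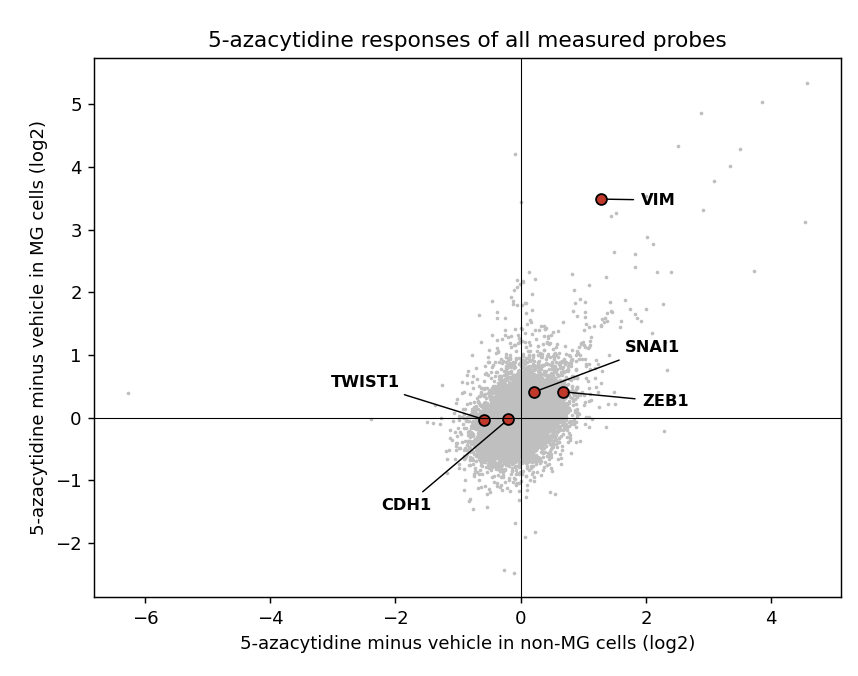
Log2 difference between 5-azacytidine and vehicle in non-MG cells (x axis) and in MG cells (y axis) for the 19808 probes well above background on all 4 arrays (grey) and the probes of 5 EMT genes (red). VIM lies at 1.28 and 3.49, away from the bulk of the probes, whereas CDH1, SNAI1, TWIST1 and ZEB1 lie between -0.58 and 0.67 on both axes.

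VIM-AS1 is a transcript of the opposite strand at chr10:17214239-17229985 that overlaps the start of VIM. It was added after its values were seen. One of its probes had an intensity of 6.77 in non-MG cells with vehicle, 6.10 in non-MG cells with 5-azacytidine, 14.7 in MG cells with vehicle and 27.9 in treated MG cells. It was well above background in the MG cells alone, where it was 0.96 ± 0.38 (spot error) higher with the drug. MG cells were at least 1.29-fold above non-MG cells with vehicle and at least 2.19-fold above them with 5-azacytidine. The other VIM-AS1 probe was above background on no array.

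Of the 3 measured transcription factors among the 10 genes, ZEB1 was the one with a higher signal in MG cells, while TWIST1 and SNAI1 were within 1.5-fold between the cell types. ZEB1 is a zinc finger and homeodomain protein that represses CDH1 and is held in check by the miR-200 family. The gene lies at chr10:31318417-31529804. Its first probe read 27.5 in non-MG cells with vehicle, 37.8 in non-MG cells with 5-azacytidine, 77.5 in MG cells with vehicle and 101 in MG cells with 5-azacytidine. Both MG arrays lay above both non-MG arrays, and within each cell type the treated array was the higher. Each of the 3 steps between neighbouring arrays (0.67 ± 0.24, 0.64 ± 0.16 and 0.41 ± 0.12, spot error) was larger than its spot error.

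MG cells exceeded non-MG cells in ZEB1 by 1.31 ± 0.22 (spot error; ranked 56 of 19808) with vehicle and by 1.05 ± 0.16 (2.08-fold, ranked 153) with 5-azacytidine. With the drug ZEB1 was higher by 0.67 ± 0.24 in non-MG cells, which is 1.59-fold. In MG cells the difference was 0.41 ± 0.12, below 1.5-fold. The value in non-MG cells was 0.57 with median centring, 0.27 with an offset of 50 and 0.32 with background kept in the signal, all below 1.5-fold. The responses of the cell types differed by -0.26 ± 0.27, within the spot error. With background kept in the signal the differences between the cell types shrank to 0.54 and 0.46, and with an offset of 50 to 0.49 and 0.45, all below 1.5-fold. The intensity of this probe was at most 101 on any array.

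The second ZEB1 probe measured the gene in the MG cells only. It gave 9.82 in non-MG cells with vehicle and 10.7 in non-MG cells with 5-azacytidine, neither well above background. It gave 19.3 in MG cells with vehicle and 20.1 in MG cells with 5-azacytidine. The MG cells with 5-azacytidine were at least 1.47-fold above the treated non-MG cells, and the treated and untreated MG cells differed by 0.09 ± 0.28 (spot error). Both probes thus placed MG cells above non-MG cells under either treatment, and the size of the second one's difference is known only as a bound.

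ZEB1-AS1, on the opposite strand at chr10:31307717-31320447 and overlapping the start of ZEB1, did not follow ZEB1. It too was added after its values were seen. Its probes had intensities of 21.8 and 20.5 in non-MG cells with vehicle and of 20.7 and 18.5 in MG cells with vehicle. With 5-azacytidine they had 14.4 and 16.4 in non-MG cells and 11.99 and 11.1 in MG cells, where they were no longer well above background. The MG cells with 5-azacytidine were at least 1.69-fold and 1.53-fold lower than MG cells with vehicle by the 2 probes. Between the untreated cell types the differences were -0.26 and -0.33, each with a spot error of 0.28.

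SNAI1 encodes SNAIL, a zinc finger repressor of CDH1 that acts early in EMT, and its signal stayed within 1.5-fold in the 4 comparisons. At chr20:49982980-49988886, it had an intensity of 551 in non-MG cells with vehicle, 553 in non-MG cells with 5-azacytidine, 481 in MG cells with vehicle and 624 in MG cells with 5-azacytidine. Untreated MG cells were lowest, and the whole spread was 1.51-fold. After scaling, SNAI1 was higher with 5-azacytidine by 0.41 ± 0.09 (spot error) in MG cells and by 0.22 ± 0.08 in non-MG cells, both below 1.5-fold. With vehicle MG cells differed from non-MG cells by -0.38 ± 0.09, which is 1.30-fold lower, and the value was between -0.39 and -0.18 under the other scalings and background settings. They differed by -0.18 ± 0.08 with the drug, and this value was 0.07 when arrays were centred on their median instead. The treated MG cells and the untreated non-MG cells were at the same level within spot error (0.03 ± 0.08).

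TWIST1, a basic helix-loop-helix factor of the mesoderm, had an intensity of 51.0 in non-MG cells with vehicle, 29.4 in non-MG cells with 5-azacytidine, 47.1 in MG cells with vehicle and 45.0 in MG cells with 5-azacytidine. The gene lies at chr7:19113047-19117636. Treated non-MG cells were the low array, and the other 3 lay close together. In non-MG cells the drug difference was -0.58 ± 0.24 (spot error), just short of 1.5-fold, and in MG cells it was -0.03 ± 0.18. The first value ranked 381 from the lowest of 19808 probes. It ranged from -0.68 to -0.16 over the other ways of processing and passed 1.5-fold in 2 of 7, median centring and quantile normalization. Between the cell types TWIST1 differed by 0.25 ± 0.24 with 5-azacytidine, about the size of the spot error.

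The remaining transcription factors of the set were at background. ZEB2 (chr2:144384081-144520119), which acts like ZEB1, gave 2.15 to 10.7 over 3 probes and 4 arrays. SNAI2 (chr8:48917598-48921429), which encodes SLUG, gave 1.97 to 2.30 with its 1 probe. TWIST2 (chr2:238848085-238910534) gave 2.09 to 2.92 over its 3 probes. None of these was well above background on any array, with or without 5-azacytidine, so no fold is given for them.

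CDH1, the adhesion molecule of epithelial junctions, was lower in MG cells than in non-MG cells, and no higher with 5-azacytidine than with vehicle in either. Its probe is spotted 10 times on each array, so that its signal is the most precise of the set. The gene lies at chr16:68737292-68835537. In non-MG cells with vehicle the spots had a mean intensity of 975 ± 47.2 (SD, n = 10 spots), between 899 and 1048. In non-MG cells with 5-azacytidine the mean was 732 ± 25.5 (SD, n = 8 spots), between 696 and 779. In MG cells it was 698 ± 41.5 (SD, n = 10 spots) with vehicle and 668 ± 23.2 (SD, n = 10 spots) with 5-azacytidine. No spot of the untreated non-MG array lay within the range of any other array, whereas the spots of the other 3 arrays overlapped before scaling.

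After scaling, CDH1 differed between MG and non-MG cells by -0.66 ± 0.03 (spot error) with vehicle, which is 1.58-fold lower. With 5-azacytidine the difference was -0.49 ± 0.03, or 1.41-fold lower, short of the threshold. The drug difference was -0.20 ± 0.03 in non-MG cells and -0.03 ± 0.03 in MG cells. The levels therefore ran from MG cells with 5-azacytidine and MG cells with vehicle, close together, to treated non-MG cells and then untreated non-MG cells. The difference with vehicle ranked 1214 from the lowest of 19808 probes. It was -0.47 with median centring, -0.55 with the offset of 50 and -0.56 with background kept, all short of 1.5-fold, and -0.70 with quantile normalization.

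**Figure D3:**
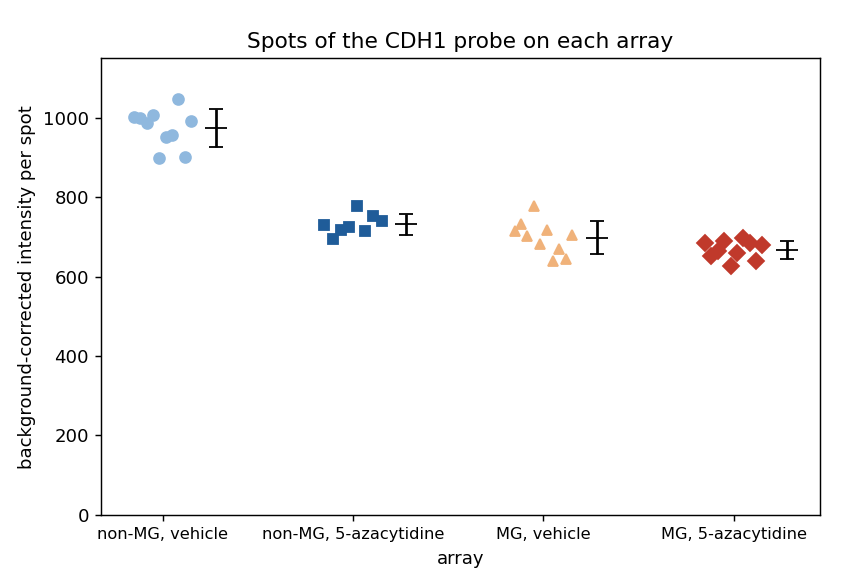
Background-corrected intensity of each retained CDH1 spot (symbols) on the 4 arrays, before scaling, with the mean and SD over spots as a bar beside them. The 10 spots of untreated non-MG cells lie between 899 and 1048, above all spots of the other arrays, which lie between 627 and 779; spots of 1 array are technical repeats of 1 sample.

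CDH2, the cadherin of mesenchymal and neural cells (chr18:27932879-28177130), came above background on 1 array. One probe had intensities of 2.27 in non-MG cells with vehicle, 6.82 in non-MG cells with 5-azacytidine, 9.86 in MG cells with vehicle and 15.9 in treated MG cells. Only the last was well above background, at least 1.42-fold above the untreated MG cells and at least 1.25-fold above the treated non-MG cells. The other probe gave 2.49 to 2.94 and was above background on none, so that the rise rests on 1 dim probe. FN1 (chr2:215360865-215436068), the glycoprotein of the mesenchymal matrix, gave 2.04 to 4.36 and was not detected on any array.

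Counted together, 2 of the 5 measured probes (VIM and ZEB1) were higher and 1 (CDH1) lower past 1.5-fold in MG cells than in non-MG cells with vehicle, where 6.08% of the 19808 probes were higher and 8.27% lower. With 5-azacytidine, 2 (VIM and ZEB1) were higher and 0 lower in MG cells, against 6.21% and 7.24% of all probes. The drug took 1 probe (VIM) higher and 0 lower in MG cells, against 3.09% and 2.2% of all probes. In non-MG cells it took 2 (VIM and ZEB1) higher and 0 lower, against 1.94% and 1.89%. With only 5 probes, these shares describe single genes. The medians of the 5 differences were -0.30, 0.25, 0.41 and 0.22 in the same order, compared with -0.01, 0.02, -0.02 and -0.04 over all probes.

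**Figure D4:**
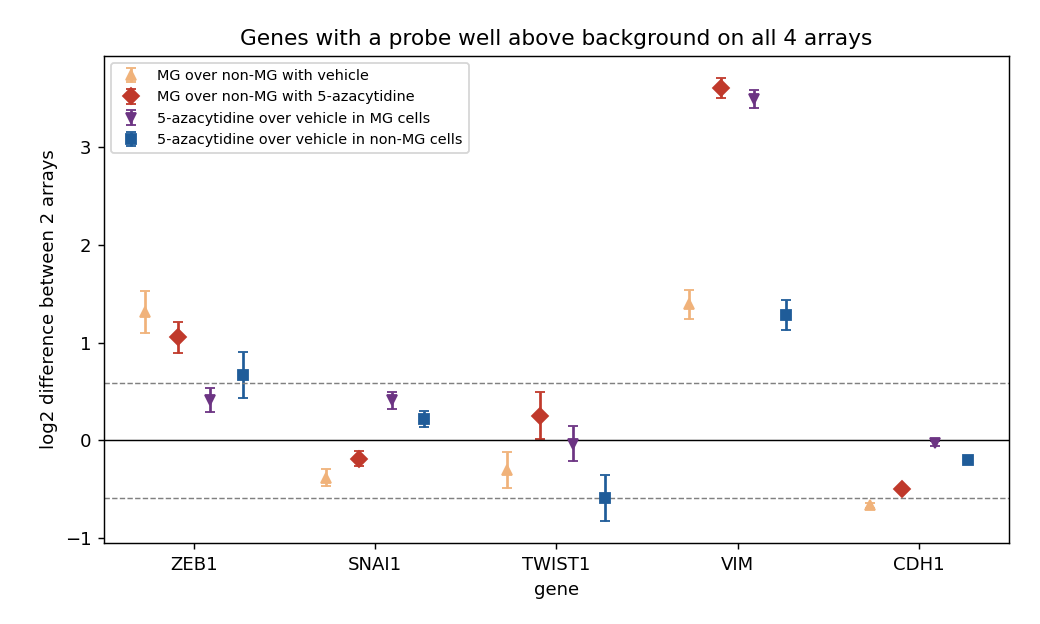
Log2 difference between pairs of arrays for the 5 genes with a probe well above background on all 4 arrays; bars are the spot error and dashed lines mark 1.5-fold. VIM is above the upper line in all 4 comparisons and ZEB1 in 3, whereas CDH1 is below the lower line in 1, the untreated cell types (-0.66).

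Genes around the 10 were read from lists by role, and each count is over probes well above background on all 4 arrays. Centring arrays on their median instead of the 75th percentile moved the median of all probes between MG and non-MG cells to 0.19 with vehicle and 0.28 with 5-azacytidine. Of all 19808 probes, 3562 in place of 2843 then passed 1.5-fold in either direction with vehicle, and 4448 in place of 2666 with 5-azacytidine. For the drug they were 1074 in place of 1047 in MG cells and 986 in place of 759 in non-MG cells. The counts of a list with median centring are given beside those it changed. Of 21 other EMT transcription factors 16 were measured, by 19 probes. In MG cells with vehicle 1 probe was higher past 1.5-fold, that of the AP-1 subunit FOSL1 (0.61 ± 0.09, spot error), and 3 were lower, where 6.08% of all probes were higher and 8.27% lower. The lower ones were SNAI3 (-0.91 ± 0.16), a relative of SNAI1, and both probes of ID2, an inhibitor of helix-loop-helix factors. The ID2 probes did not match in size. One gave -2.19 ± 0.08 and the other -0.72. With median centring 2 probes of the list were higher and 2 lower.

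With 5-azacytidine 4 of the 19 probes were higher in MG cells and 0 lower, beside 3.09% and 2.2% of all probes. They included ID2 (1.41 ± 0.09, spot error) by the probe that had been lowest in untreated MG cells, KLF8 (0.77 ± 0.24) and TBX3. The other ID2 probe had -0.22. In non-MG cells 1 was higher, that of TBX3 (0.67 ± 0.28), where 1.94% of all probes were higher, and with median centring 0 were higher and 1 lower. Between the treated cell types 2 probes were higher in MG cells, FOSL1 (0.76 ± 0.10) and RUNX1 (0.73 ± 0.22), and 3 were lower, ID2 again with both. Of all probes 6.21% were higher and 7.24% lower in this comparison. With median centring 8 of the 19 were higher and 0 lower, where 4448 of all 19808 probes passed 1.5-fold in either direction. TCF4, FOXC2, GSC, PRRX1 and ETS1 were above background on no array, as were ZEB2, SNAI2 and TWIST2.

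Factors that hold the epithelial state showed no common direction. Of 14 probes, 1 was higher in MG cells with vehicle, OVOL2 (1.19 ± 0.16, spot error), a repressor of ZEB1, and 1 was lower, the epithelial ETS factor ELF3 (-1.09 ± 0.08). Of all probes, 6.08% were higher and 8.27% lower in this comparison. With 5-azacytidine OVOL2 (1.06 ± 0.22) and EHF (0.69 ± 0.09) were higher and 3 were lower, ELF3 (-0.96 ± 0.08) and the CDH1 activator GRHL2 (-0.87 ± 0.16) among them. Between the treated cell types 6.21% of all probes were higher and 7.24% lower. With median centring 2 were higher and 1 lower with vehicle, and 4 higher and 2 lower with 5-azacytidine. The drug took none of the 14 past 1.5-fold in either cell type, under either centring. Of all probes, 3.09% were higher and 2.2% lower with it in MG cells, and 1.94% and 1.89% in non-MG cells. In a list of this size, none past the threshold lies near these shares. FOXA2, outside the naming rule and chosen after its values were seen, had intensities of 5.77 and 15.5 in untreated non-MG and MG cells and of 18.8 and 52.6 in the treated ones. It was at least 2.17-fold higher with the drug in non-MG cells. In MG cells, where both arrays were well above background, FOXA2 was higher with the drug by 1.79 (log2).

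Cofactors and degradation enzymes of SNAIL, ZEB and TWIST were measured by 29 probes of 23 genes. The lysyl oxidase-like enzyme LOXL3, which stabilizes SNAIL, was higher in MG cells (0.61 ± 0.12 with vehicle and 0.80 ± 0.11 with 5-azacytidine, spot error). The ubiquitin ligase subunit FBXL14, which marks SNAIL and TWIST for degradation, was lower (-0.91 ± 0.24 and -0.77 ± 0.28). No other probe of this list passed 1.5-fold in the 4 comparisons at this scaling, and the medians were between -0.09 and 0.15. Over all probes, 6.08% were higher and 8.27% lower in MG cells with vehicle, and 6.21% and 7.24% with 5-azacytidine. For the drug, 3.09% were higher and 2.2% lower in MG cells, and 1.94% and 1.89% in non-MG cells. With median centring 4 probes were higher and 1 lower in MG cells with vehicle. With 5-azacytidine 4 were then higher and 0 lower, so FBXL14 no longer passed, and 1 was lower with the drug in non-MG cells.

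Of the inducing ligands, receptors and SMADs, 15 genes were measured by 25 probes. With vehicle the Notch ligand JAG1 was higher in MG cells (0.92 ± 0.16, spot error), and 3 probes were lower, those of the TGF-β effector SMAD3 (-0.88 ± 0.07) and of EGFR (-0.93 ± 0.18 and -0.87). Of all probes, 6.08% were higher and 8.27% lower in this comparison. JAG1 was higher with 5-azacytidine in non-MG cells (1.29 ± 0.16), where its intensity went from 56.8 to 120, next to 122 in untreated MG cells. In treated MG cells BMP7 was higher than in untreated ones (0.66 ± 0.24) by 1 of its 3 probes, whereas the others gave 0.14 and 0.31. With median centring 3 probes were higher and 3 lower between the untreated cell types, and 5 higher and 0 lower between the treated ones. At the 75th percentile the latter were 2 and 1, where 6.21% of all probes were higher and 7.24% lower. With median centring 4448 of all 19808 probes passed 1.5-fold in either direction between the treated cell types. For the drug in non-MG cells 1 was higher and 3 lower with median centring. TGFB2, BMP2, HGF and WNT5A were above background on no array.

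Cadherins and catenins other than CDH1 and CDH2 were measured by 18 probes of 10 genes. At the 75th percentile 1 passed 1.5-fold, JUP, the catenin of desmosomes and adherens junctions, at -0.73 ± 0.07 (spot error) in MG cells with vehicle. Of all probes, 6.08% were higher and 8.27% lower in that comparison, and 6.21% and 7.24% between the treated cell types. For the drug, 3.09% were higher and 2.2% lower in MG cells, and 1.94% and 1.89% in non-MG cells. With median centring 0 of the 18 passed with vehicle. Between the treated cell types 2 were then higher and 0 lower, and 1 was lower with the drug in non-MG cells. P-cadherin (CDH3), β-catenin (CTNNB1), α-catenin (CTNNA1) and p120 catenin (CTNND1) stayed within 1.5-fold in each comparison at the 75th percentile. CDH4, CDH6, CDH11, CDH13 and CDH17 were above background on none of the arrays. CDH17 is also among the colon epithelial markers above, so these absences do not describe mesenchymal cadherins alone.

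Intermediate filament genes, the relatives of VIM, and the linker genes PLEC and EPPK1 were measured by 22 probes of 14 genes. No keratin probe was lower past 1.5-fold in the 4 comparisons. Of all probes, 8.27% were lower in MG cells with vehicle and 7.24% with 5-azacytidine, and 2.2% were lower with the drug in MG cells. With few keratin probes, 0 lower lies near these shares. In MG cells with vehicle 2 probes were higher (6.08% of all probes were), KRT80 (1.18 ± 0.11, spot error) and a dim KRT8 probe (0.81 ± 0.24). The other KRT8 probes gave 0.16 and 0.03. With the drug 2 were higher in MG cells (3.09% of all probes were), KRT20 (1.85 ± 0.22), a keratin of differentiated colon cells, and KRT7 (0.73 ± 0.08). KRT20 was also higher with the drug in non-MG cells (1.42 ± 0.35), and the lamin gene LMNB1 was lower (-0.70 ± 0.09). There 1.94% of all probes were higher and 1.89% lower. With 5-azacytidine 4 probes were higher in MG than in non-MG cells (6.21% of all probes were), with KRT80 (1.16 ± 0.15) and LMNB1 (intensities of 1286 and 468) the 2 largest. The median of the list was 0.21 with vehicle and 0.38 with 5-azacytidine between the cell types, compared with -0.01 and 0.02 over all probes. With median centring it was 0.41 and 0.64, and 4 were higher in MG cells with vehicle. Between the treated cell types 13 of the 22 probes were then higher in MG cells, where 4448 of all 19808 probes passed 1.5-fold in either direction.

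Fibronectin receptors and assembly genes were measured by 16 probes of 12 genes, and at the 75th percentile TGM2 alone passed 1.5-fold. TGM2 is a transglutaminase that crosslinks fibronectin. Its brighter probe gave intensities of 72.0 in non-MG cells with vehicle, 132 in non-MG cells with 5-azacytidine, 218 in MG cells with vehicle and 463 in MG cells with 5-azacytidine. It was higher in MG cells by 1.42 ± 0.11 (spot error) with vehicle and by 1.45 ± 0.10 with 5-azacytidine, and higher with the drug by 1.12 ± 0.10 in MG cells and by 1.09 ± 0.11 in non-MG cells. The second TGM2 probe gave 0.91 ± 0.22 and 1.08 ± 0.22 between the cell types but 0.20 and 0.04 for the drug. The integrin genes ITGA5, ITGAV and ITGB1 stayed within 1.5-fold at this scaling. Over all probes, 6.08% were higher and 8.27% lower in MG cells with vehicle, and 6.21% and 7.24% with 5-azacytidine. For the drug, 3.09% were higher and 2.2% lower in MG cells, and 1.94% and 1.89% in non-MG cells. With median centring 6 probes of the list were higher and 0 lower between the treated cell types, in place of 2 and 0. There 4448 of all 19808 probes then passed 1.5-fold in either direction.

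Epithelial junction and polarity genes that SNAIL or ZEB proteins are known to repress lay mostly on the lower side in MG cells, next to CDH1. Of 23 probes for 18 genes, 0 were higher and 5 were lower past 1.5-fold with vehicle, against 6.08% and 8.27% of all probes. These were TJP3 (-1.14 ± 0.10, spot error), a tight junction scaffold, MUC1 (-0.85 ± 0.24), CLDN3, CGN and CLDN4. The highest value of the list was 0.06. With 5-azacytidine 0 were higher and 5 were lower, against 6.21% and 7.24% of all probes. TJP3 at -1.17 ± 0.11 and the claudin CLDN4 at -0.90 ± 0.07 were the lowest. The medians were -0.30 and -0.28, compared with -0.01 and 0.02 over all probes. With median centring they were -0.10 and -0.02, with 0 higher and 4 lower under vehicle and 2 higher and 3 lower under 5-azacytidine. EPCAM, the epithelial surface antigen, differed by 0.05 under both treatments.

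The drug did not raise the measured probes of this list past 1.5-fold. In MG cells 0 were higher and 1 was lower, TJP3 (-0.65 ± 0.11, spot error), beside 3.09% and 2.2% of all probes. In non-MG cells 0 were higher and 2 were lower, TJP3 (-0.62 ± 0.10) and 1 of the F11R probes (-0.60 ± 0.11). There 1.94% of all probes were higher and 1.89% lower. In a list of this size, 0 higher lies near the shares over all probes.

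**Figure D5:**
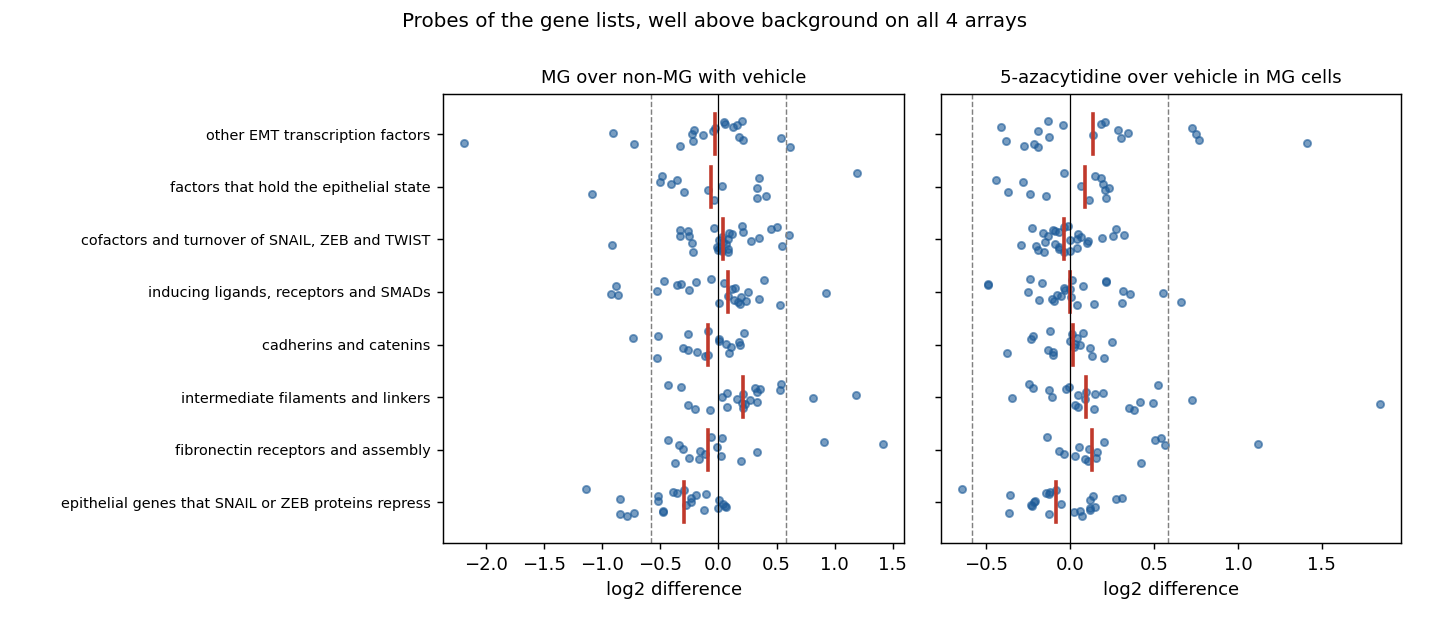
Log2 differences of the probes of 8 gene lists (points) between untreated MG and non-MG cells (left) and with 5-azacytidine over vehicle in MG cells (right); red bars are the list medians and dashed lines mark 1.5-fold. The epithelial genes that SNAIL or ZEB proteins repress have the lowest median on the left (-0.30), with 0 of 23 probes past the upper line.

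Markers of other cells were read beside VIM, a gene that fibroblasts also express. Of 11 fibroblast markers, 2 were above background on all 4 arrays, COL1A1 and ACTA2, and 1 more, THY1, on both treated arrays and neither untreated one. In MG cells with vehicle COL1A1 (-0.92 ± 0.16, spot error) and ACTA2 (-0.85 ± 0.11) were lower, while VIM was higher. The summed fibroblast signal, as a multiple of the 75th percentile of the array, was 2.90 in non-MG cells with vehicle, 2.93 in non-MG cells with 5-azacytidine, 1.75 in MG cells with vehicle and 2.29 in MG cells with 5-azacytidine. In MG cells the sum was thus higher with the drug, as were ACTA2 (0.47) and COL1A1 (0.25), in the comparison in which VIM was higher by 3.49. The part of these markers in the VIM values was not tested. Of 9 blood and endothelial markers with a probe, 2 were above background on all 4 arrays, CD14 and VWF, and their list summed to between 0.944 and 1.45. PTPRC, PECAM1, CDH5 and KDR were above background on none. The colon epithelial sum lay between 1292 and 1371.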

How the data were processed

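Gene expression was measured with Agilent SurePrint G3 arrays in MG and non-MG HCT116 cells, 1 array per condition. Per the file headers, the scanner files deposited by the authors came from Agilent Feature Extraction 11.5.1.1 and give each spot an intensity as read (median over pixels), an intensity after background subtraction, and quality flags. They also deposited a table of log2 values, made in GeneSpring, whose values are centred per probe (median of the 4 arrays at 0). The labels name RNAiso Plus for the extraction, whereas the methods name an RNeasy kit.

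Control and outlier spots were left out (5 of 50599 probes), spots of a probe were averaged on the log2 scale, and the 75th percentile of each array was subtracted. Accessions were matched, without version, to RefSeq (GRCh38.p14), which named 30000 of the probes (59.3%). A probe counted past 1.5-fold only where it was well above background on all 4 arrays. On an array where it was not, the fold is a lower bound, taken against the detection limit of that array or, where higher, the probe's own signal. Spot error combines the median SD between spots of 902 probes spotted 10 times, within ranges of intensity. Counting was tested on simulated arrays. The number of arrays limits the precision of every value.

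The genes and lists were chosen with earlier results of these data known. All probes of the 10 genes are named, and in each list the 2 largest rises and falls past 1.5-fold per comparison. Other list genes are given as counts, as values of a second probe, or as members chosen after their values were seen. For each of the 10 genes that spanned 1.5-fold, the 3 genes with the smallest Euclidean distance over the 4 centred values are named. The alternatives were median centring, the 75th percentile over probes above background, quantile normalization, normexp with an offset of 50, raw signal, the deposited log2 table, signals raised to the detection limit, other filters on background, and thresholds of 2-fold and 1.4-fold. Computation was in Python 3.11.15 (pandas 2.3.3, numpy 2.4.6, matplotlib 3.10.9) and R 4.3.3 (limma 3.58.1).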

Additional observations from a re-analysis of the deposited data

Results flagged for a closer look

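TWIST1 differed between MG and non-MG cells by -0.30 with vehicle and by 0.25 with 5-azacytidine, so that the sign of the difference changed with the treatment. The spot errors were 0.18 and 0.24. The difference of these values was 0.55 with a spot error of 0.30, and it was not tested, since each condition had 1 array. The treated non-MG array, with an intensity of 29.4, was the one that stood apart from the other 3, which lay between 45.0 and 51.0.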

How the results depend on the processing

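Of 44 counts of the 5 probes past 1.5-fold under the alternatives, 33 stayed within 1.5 times the count reported, and no difference past 1.5-fold changed its sign. The others were as follows. With normexp and an offset of 50, and also with raw signal, the count was 1 (VIM) in place of 3 between the untreated cell types, 1 (VIM) in place of 2 between the treated ones, and 1 (VIM) in place of 2 for the drug in non-MG cells. Both settings leave or add a constant to the signal, which pulls ratios of dim probes towards 0. Without a filter on background, the counts over all 17 probes were 6, 6, 4 and 7 in place of 3, 2, 1 and 2, because probes of ZEB1, ZEB2, CDH2, FN1 and TWIST1 below background then entered. With a 2-fold threshold the count for the drug in non-MG cells was 1 (VIM) in place of 2. Median centring moved the median of all probes between the cell types to 0.19 with vehicle and 0.28 with 5-azacytidine, and it took CDH1 with vehicle (-0.47) and ZEB1 with the drug in non-MG cells (0.57) below 1.5-fold. TWIST1 with the drug in MG cells changed sign under normexp (0.12) and raw signal (0.14), within its spot error of 0.18.

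No paired analysis was possible because each condition has 1 array and the labels give no replicate numbers. Matching probes by gene name was not run, since the files used here pair no names with probes, and the slide could not be a block, since there was 1. Normexp was run on the median spot signal. The second ZEB1 probe and both CDH2 probes were not above background on every array, and 1 array per condition limits every value.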

Other observations

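The genes with the pattern over the 4 arrays nearest to that of each gene were named by distance on the log2 scale, as a description. The nearest to VIM were C3orf33 (1.27), the stress-response gene NUPR1 (1.46) and FAM201A (1.65), so that no named probe followed VIM closely. NUPR1 had intensities of 14.3 in non-MG cells with vehicle, 25.3 in non-MG cells with 5-azacytidine, 50.6 in MG cells with vehicle and 150.0 in MG cells with 5-azacytidine, the same order of arrays as VIM. C3orf33 had 33.2, 28.8, 34.8 and 371 in that order, high in treated MG cells alone. The nearest to ZEB1 were the formin gene INF2 (0.09), SP5 (0.13), which encodes a transcription factor of the Wnt pathway, and POLR3F (0.19). INF2 had 158, 212, 474 and 573. The nearest to CDH1 were LINC00265, SPIN3 and GAA, all at 0.02, and the nearest to SNAI1 were EIF5AL1 (0.04), ZNF329 (0.04) and EXT1 (0.05). With 4 arrays, these distances are a description only.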
